A study of Mus musculus with 4 samples.

Results

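Plac8, Nhsl2, Fam129b, Arl4c, Dapl1 and Igfbp4 are 6 genes whose transcripts were much lower in T follicular helper (Tfh) cells than in T cells of the same antigen receptor sorted as non-Tfh cells. They are 6 of the 39179 gene identifiers in the count files and 6 of the 11702 genes that passed the low-count filter. The genes were selected on their low counts in the Tfh libraries, so the difference between the groups is the reason for their choice and is described here with no test. No threshold was given for that choice.

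The Tfh libraries came from CD44hi CXCR5+ PD-1+ cells and the non-Tfh libraries from CXCR5- PD-1- cells, with 2 libraries in each group that the labels call T32 and T53. The cells of both groups bore the OT-II T cell receptor, a transgene specific for an ovalbumin peptide. They had been transferred into C57BL/6 hosts, recovered as Thy-1.1+ cells from pooled inguinal lymph nodes and sorted on day 8 after subcutaneous immunisation of the hosts with nitrophenol-coupled ovalbumin. Age and sex of the mice and the number of animals per pool are not given in the sources used here, nor whether the libraries of a group came from separate animals. The spread behind each p-value is therefore that between these samples, and it may be technical.

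The Tfh libraries held 12354113 (T32) and 5725358 (T53) counts, and the non-Tfh libraries 13360563 (T32) and 8636056 (T53). The sorted phenotypes were visible in the RNA, with log2 fold changes of 3.75 for Cxcr5 and 3.33 for Pdcd1. All 8 T cell markers looked for were detected in every library, Cd4 at 1046 and 1062 CPM in Tfh and 927 and 915 CPM in non-Tfh cells. CPM is a count divided by the library total in units of 1e6 counts, after TMM scaling of that total.

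The 6 genes are not known as members of a common pathway. Plac8 encodes a small cysteine-rich protein of myeloid and lymphoid cells that neutrophils of mice need for normal killing of bacteria. Nhsl2 belongs to the Nance-Horan syndrome family, whose founding protein regulates the actin cytoskeleton, and Fam129b (Niban2) encodes a protein with a pleckstrin homology domain that is phosphorylated by ERK in human melanoma cells. Arl4c is a small GTPase of the ARF-like group that recruits cytohesins, exchange factors for Arf6, to the plasma membrane, and it is a target of liver X receptors in human cells. Dapl1, a relative of the death-associated protein Dap, restrains NFATc2 in mouse CD8 T cells. Igfbp4 encodes a secreted protein that binds insulin-like growth factors and is cut by the protease Pappa. Dapl1 and Igfbp4 are known as transcripts of naive and resting T cells.

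RefSeq promoter windows of GRCm38.p6, which run from 250 bases before to 50 bases after the transcription start, were found for 5 of the 6 genes (Nhsl2 had no entry). The windows of Plac8, Dapl1 and Arl4c are printed because the first 2 hold the motif matches and the third differs most from them in base composition. Capitals mark matches to either strand of the letters CCACCC, a core bound by Krüppel-like factors, or GTAAACA, a core bound by FOXO factors. The Plac8 window is chr5:100572156-100572455 on the minus strand, the Dapl1 window chr2:59484403-59484702 on the plus strand and the Arl4c window chr1:88702142-88702441 on the minus strand.
Plac8: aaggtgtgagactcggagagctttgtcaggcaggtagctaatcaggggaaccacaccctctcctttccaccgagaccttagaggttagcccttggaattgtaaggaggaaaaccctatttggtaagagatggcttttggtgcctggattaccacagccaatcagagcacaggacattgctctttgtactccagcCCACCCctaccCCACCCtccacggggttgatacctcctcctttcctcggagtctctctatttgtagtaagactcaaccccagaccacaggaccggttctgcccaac
Dapl1: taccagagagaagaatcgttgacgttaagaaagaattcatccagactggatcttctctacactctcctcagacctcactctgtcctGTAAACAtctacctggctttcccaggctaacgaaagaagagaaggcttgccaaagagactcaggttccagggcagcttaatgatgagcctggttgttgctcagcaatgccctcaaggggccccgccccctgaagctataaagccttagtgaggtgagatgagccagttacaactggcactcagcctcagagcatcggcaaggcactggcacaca
Arl4c: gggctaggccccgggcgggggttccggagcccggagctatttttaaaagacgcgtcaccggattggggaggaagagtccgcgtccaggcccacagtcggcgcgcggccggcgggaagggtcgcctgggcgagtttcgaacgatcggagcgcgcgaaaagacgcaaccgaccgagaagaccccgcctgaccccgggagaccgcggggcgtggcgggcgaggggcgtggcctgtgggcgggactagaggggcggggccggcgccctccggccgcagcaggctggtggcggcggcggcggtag
The Plac8 window held 2 matches to CCACCC, starting 56 and 45 bases before the RefSeq transcription start. That start lies 40 bases inside the annotated Plac8 locus given below. The letters CCACCC occur in 31.5% of the 32851 windows. The Dapl1 window held 1 match to GTAAACA, whose letters occur in 3.65% of windows. None of the 5 windows held CTTTGA, a core bound by TCF and LEF factors that occurs in 16% of windows, or the E-box CAGCTG, which occurs in 16.3%. No 2 of these 4 motifs overlapped in a window. The Arl4c window was 74% G and C with 44 CG pairs, against 52.7% and 5 CG pairs in the Plac8 window and 51% and 5 in the Dapl1 window. The windows of Igfbp4 (71.3%, 27 CG pairs) and Fam129b (65.3%, 20 CG pairs) lay between them, and the medians over all windows were 52.7% and 7 CG pairs.

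Plac8 (ENSMUSG00000029322, GRCm38 chromosome 5, 100553725 to 100572245, minus strand) was at the edge of detection in Tfh cells. It had 2 counts in Tfh T32 and 1 in Tfh T53, against 202 and 75 in the non-Tfh libraries T32 and T53. That is 0.168 and 0.175 CPM in the Tfh libraries, against 15 and 8.43 CPM in the non-Tfh libraries. Both Tfh libraries were low and alike, and the groups did not overlap. At the pooled non-Tfh level 148 counts would have been found in Tfh T32 and 71 in Tfh T53. The ratio of pooled CPM was 73.1-fold lower in Tfh cells, with an exact 95% counting interval of 24.7 to 356. Such intervals, and the floors used for counts of 0, reflect counting error alone. In these bulk libraries fewer cells with the transcript and less transcript per cell cannot be told apart. No other gene was at least as high as Plac8 in the pooled non-Tfh libraries and at most as high in the pooled Tfh libraries. Nhsl2 came close, with no Tfh counts and 267 pooled non-Tfh counts against 277 for Plac8. By the mean of the non-Tfh libraries Nhsl2 was the higher, at 12.4 CPM against 11.7.

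Nhsl2 (ENSMUSG00000079481, chromosome X, 101849385 to 102092055, plus strand) had no counts in either Tfh library, against 137 (T32) and 130 (T53) in the non-Tfh libraries. In CPM it reached 10.2 and 14.6 in the non-Tfh libraries, while 3 counts, the limit that a count of 0 allows, would be 0.251 CPM in Tfh T32 and 0.524 CPM in Tfh T53. At the pooled non-Tfh level 143 and 68.5 counts would have been found in Tfh T32 and Tfh T53. Against a floor of 3 counts over the Tfh group, Nhsl2 was at least 70.4-fold lower in Tfh cells. This bound fell to 22.8 without the Tfh T32 library, because the floor then rests on the shallower library alone. Rtl5, a gene on the opposite strand inside the Nhsl2 locus, had 1 and 0 counts in the Tfh libraries and 7 and 2 in the non-Tfh libraries. Which strand setting HTSeq was run with is not given in the sources used here, so reads of these overlapping genes may not have been kept apart.

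Fam129b (ENSMUSG00000026796, chromosome 2, 32876114 to 32925254, plus strand) had 6 and 3 counts in Tfh T32 and Tfh T53, against 252 and 129 in non-Tfh T32 and non-Tfh T53. In CPM this was 0.503 and 0.524 in Tfh cells, against 18.8 and 14.5 in non-Tfh cells. The Tfh libraries were again alike, and the pooled ratio was 33.5-fold lower in Tfh cells (17.5 to 73.8). Acsbg1, a fatty acid ligase, was the 1 other gene as high in non-Tfh and as low in Tfh cells. Fam129b overlaps Lrsam1 on the opposite strand, which had 103 and 63 counts in the Tfh libraries and 107 and 79 in the non-Tfh libraries.

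Dapl1 (ENSMUSG00000026989, chromosome 2, 59484653 to 59505020, plus strand) had 1 count in Tfh T32 and none in Tfh T53, against 65 (T32) and 44 (T53) in the non-Tfh libraries. The non-Tfh libraries gave 4.84 and 4.95 CPM, the closest pair among the 6 genes. The pooled ratio was 86.2-fold lower in Tfh cells, and its counting interval of 15.2 to 3437 shows how little the size is fixed by the 1 count. Without the Tfh T32 library Dapl1 was at least 9.3-fold lower, since only 28 counts would be found in Tfh T53 at the non-Tfh level. For Dapl1 6 other genes were as high in non-Tfh and as low in Tfh cells, among them Nhsl2, the integrin chain Itgae and the leukotriene receptor Cysltr1.

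Arl4c (ENSMUSG00000049866, chromosome 1, 88673125 to 88702221, minus strand) differed from the other genes in keeping a clear level in Tfh cells. It had 262 and 140 counts in Tfh T32 and Tfh T53, against 3392 and 2618 in non-Tfh T32 and non-Tfh T53. This was 22 and 24.5 CPM in Tfh cells, against 253 and 294 CPM in non-Tfh cells. The pooled ratio was 11.8-fold lower in Tfh cells (10.7 to 13.1) and moved by at most 1.09 times with any library left out or another scaling. No other gene was as high in non-Tfh and as low in Tfh cells.

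Igfbp4 (ENSMUSG00000017493, chromosome 11, 99041244 to 99054392, plus strand) differed between the Tfh libraries more than any other of these genes that was counted in both. It had 9 counts in Tfh T32 and 14 in the shallower Tfh T53, against 185 and 186 in non-Tfh T32 and non-Tfh T53. In CPM this was 0.754 (0.345 to 1.43) and 2.45 (1.34 to 4.1) in Tfh cells, against 13.8 and 20.9 in non-Tfh cells. T53 was the higher library in both groups. The pooled ratio was 12.8-fold lower in Tfh cells (8.38 to 20.4), 6.78-fold without Tfh T32 and 21.8-fold without Tfh T53. For Igfbp4 6 other genes, among them Fam129b, were as high in non-Tfh and as low in Tfh cells, and for Nhsl2 none.

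**Figure D1:**
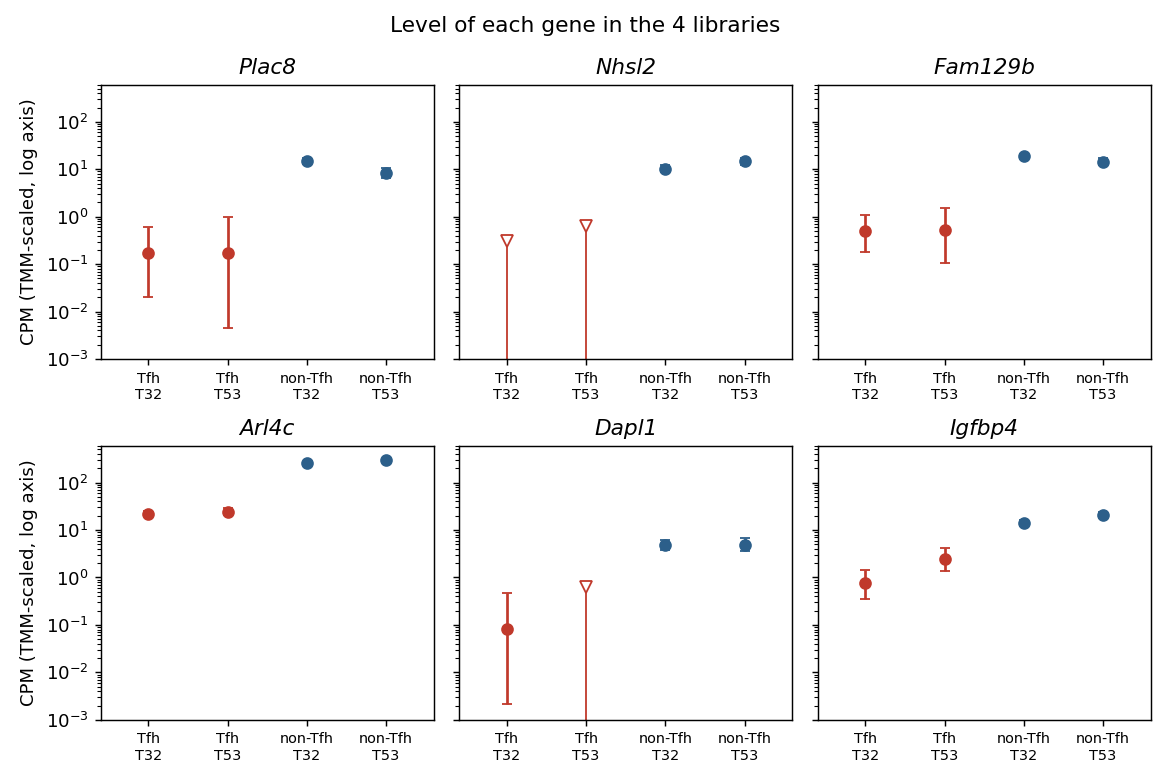
CPM of each gene in each library on a log axis, Tfh libraries in red and non-Tfh libraries in blue, with exact 95% Poisson intervals. Open triangles mark the upper end of the interval where a library had no counts, as in both Tfh libraries for Nhsl2 and in Tfh T53 for Dapl1. In every panel both Tfh points lie below both non-Tfh points, Arl4c alone staying above 20 CPM in Tfh cells.

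In all 6 genes both Tfh libraries lay below both non-Tfh libraries. The same was true of 25.6% of the 11702 genes tested, of which 8.49% were called in either direction, and since the genes were chosen for this contrast nothing is read from their count. Together they held 280 counts in Tfh T32 and 158 in Tfh T53, against 4233 and 3182 in the non-Tfh libraries, most of them from Arl4c. Near-complete absence was uncommon. Of 10421 genes with at least 50 counts over the non-Tfh libraries, 34 had at most 3 over the Tfh libraries, and Plac8, Nhsl2 and Dapl1 were 3 of these. In the other direction 10 of 10168 genes with at least 50 Tfh counts had at most 3 non-Tfh counts.

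Corrected for exon length, as TPM, the order of the genes changed, because Nhsl2 has 16952 exonic bases and Dapl1 679. Arl4c led in both groups, with 10 and 12.6 TPM in Tfh cells and 122 and 166 TPM in non-Tfh cells. It lay above 52.4% and 51.2% of detected genes in Tfh T32 and Tfh T53, and above 95.4% and 96.6% in non-Tfh T32 and non-Tfh T53. Plac8 averaged 0.287 TPM ± 0.0321 in Tfh cells, against 20.8 ± 6.18 in non-Tfh cells (SD, n = 2 per group), and Dapl1 0.155 ± 0.219 TPM in Tfh and 20.8 ± 2.54 TPM in non-Tfh cells. Igfbp4 followed with 0.995 TPM ± 0.801 in Tfh cells, against 11.5 ± 4.5 in non-Tfh cells, and Fam129b with 0.293 ± 0.0328 TPM in Tfh and 10.2 ± 0.759 TPM in non-Tfh cells. Nhsl2 was lowest in non-Tfh cells with 2.14 TPM ± 0.756, above 29.7% and 30.8% of detected genes, and was 0 in Tfh cells. In non-Tfh cells the libraries of Plac8 and Dapl1 overlapped in TPM, as did those of Igfbp4 and Fam129b, while Arl4c and Nhsl2 stood apart from their neighbours in the order.

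**Figure D2:**
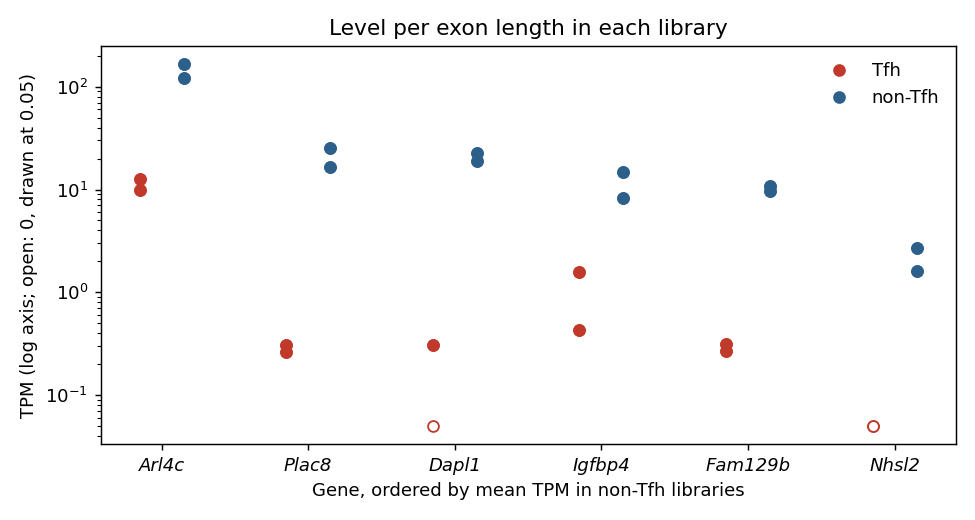
TPM of each gene in each library on a log axis, Tfh in red and non-Tfh in blue, ordered by the non-Tfh mean, with libraries at 0 drawn open at the bottom. Arl4c is highest in both groups, and Plac8 and Dapl1 share a mean of 20.8 TPM in non-Tfh cells.

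The genes did not vary alike between the non-Tfh libraries. Plac8 was 1.78 times higher in non-Tfh T32 than in non-Tfh T53 and Fam129b 1.29 times, whereas Igfbp4 was 1.52 times, Nhsl2 1.43 times and Arl4c 1.16 times higher in non-Tfh T53. Dapl1 differed by 1.02 times. For Plac8, Nhsl2, Arl4c and Igfbp4, 4 of the 6, the counting intervals of the non-Tfh libraries did not overlap, as for 28.5% of the 11702 genes tested. In Tfh cells the intervals overlapped for all 6, at few counts for 5 of them, and did not overlap for 18.2% of genes tested.

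Genes with the most similar pattern were sought among tested genes outside the 6 with at least 50 non-Tfh counts, as the smallest Euclidean distance over the 4 libraries in log2(CPM + 0.5) centred on each gene's mean. The likeness rests on 4 values per gene, on the pseudocount where counts are few, and on the same contrast that chose the genes. Nearest to Plac8 was Il2ra, the high-affinity chain of the interleukin-2 receptor, at a distance of 0.181, with 2.35 and 2.1 CPM in Tfh cells and 70.6 and 38.3 CPM in non-Tfh cells. Of the genes outside the 6, Cysltr1 and Acsbg1 came next, both higher in non-Tfh T32 as Plac8 was. Nearest to Fam129b outside the 6 were Coro2a, a coronin, at 0.38, then Il2ra and Cysltr1. Nearest to Nhsl2 was the sialyltransferase St8sia6 at 0.584, with 0.922 and 1.92 CPM in Tfh cells and 33.2 and 56.7 CPM in non-Tfh cells. The sulfotransferase Ust and the integrin chain Itgb3 followed.

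Ccr7, the receptor that draws T cells to the T zone of lymph nodes, was nearest to Dapl1 at 0.16 and among the 3 nearest to Arl4c at 0.301. It had 17.8 and 15.2 CPM in Tfh cells and 164 and 192 CPM in non-Tfh cells. The other genes near Dapl1 were Rap1gap2, a GTPase-activating protein for Rap1, and the flippase Atp8b4. Nearest to Arl4c were 1500009L16Rik, with no counts in Tfh cells and 5.51 and 5.96 CPM in non-Tfh cells, and Vipr1, a receptor for vasoactive intestinal peptide. Nearest to Igfbp4 was Tdrp at 0.162, with 1.26 and 4.19 CPM in Tfh cells and 22.6 and 32.9 CPM in non-Tfh cells, followed by Neb and Tent5a. Among the 6 genes themselves, Plac8 and Fam129b (0.317) and Arl4c and Dapl1 (0.364) were closest, and Nhsl2 and Igfbp4 (1.72) farthest apart.

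Relatives of the 6 genes were examined next. Of 16 paralogs, 7 had no counts in any library and 6 were expressed enough to be tested. None of the 6 was called lower, at a background of 4.02% of all genes tested. There was 1 lower at an unadjusted p under 0.05 in edgeR, and none was called lower by DESeq2 or limma-voom. At this share 6 genes would hold few calls, so nothing is read from the lack of lower calls. Higher calls were made for 2, at a background of 4.47%. Nhsl1, a relative of Nhsl2 that binds the Scar/WAVE complex, measured 17.8 and 26.9 CPM in Tfh cells and 3.13 and 7.19 CPM in non-Tfh cells. It rose 4.4-fold in Tfh cells (log2 fold change 2.14 ± 0.422 SE, edgeR quasi-likelihood test, adjusted p = 0.0364). Dap, the relative of Dapl1 and in human cells a suppressor of autophagy, measured 92.9 and 110 CPM in Tfh cells and 66.7 and 50.8 CPM in non-Tfh cells. It rose 1.72-fold (0.78 ± 0.168, edgeR adjusted p = 0.0408).

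Nhsl2 and Dapl1 were chosen for being low in Tfh cells, so any relative called higher lies opposite to them. This held for Nhsl1 and for Dap, and nothing more is read from it. Without Tfh T53 both calls were lost (edgeR adjusted p = 0.109 for Nhsl1 and 0.15 for Dap), and without non-Tfh T53 that of Dap was lost (0.0707), while the log2 fold change of Nhsl1 was 2.81. With limma-voom Dap had an adjusted p of 0.0504. The Fam129b relative Fam129a (Niban1), a protein of the stress response, measured 41.2 and 53.1 CPM in Tfh cells and 80 and 63.7 CPM in non-Tfh cells and did not pass the test (edgeR adjusted p = 0.0936). Fam129c, at 3.27 and 3.84 CPM in Tfh and 4.1 and 4.05 CPM in non-Tfh cells, did not pass either (0.766). Arl4a, which like Arl4c recruits cytohesins, measured 25.6 and 22.9 CPM in Tfh and 25.5 and 24.7 CPM in non-Tfh cells (log2 fold change -0.044 ± 0.146), and Arl4d stayed under 2.1 CPM in all 4 libraries. Of the other insulin-like growth factor binding proteins, Igfbp5, Igfbp6 and Igfbp7 had at most 10 counts in a library and Igfbp1, Igfbp2, Igfbp3 and Igfbpl1 had none. The Plac8 relatives Plac8l1 and Cnfn and the Nhsl2 relative Nhs had none either. The median log2 fold change of the 6 tested paralogs was -0.13, against -0.0054 over all genes.

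**Figure D3:**
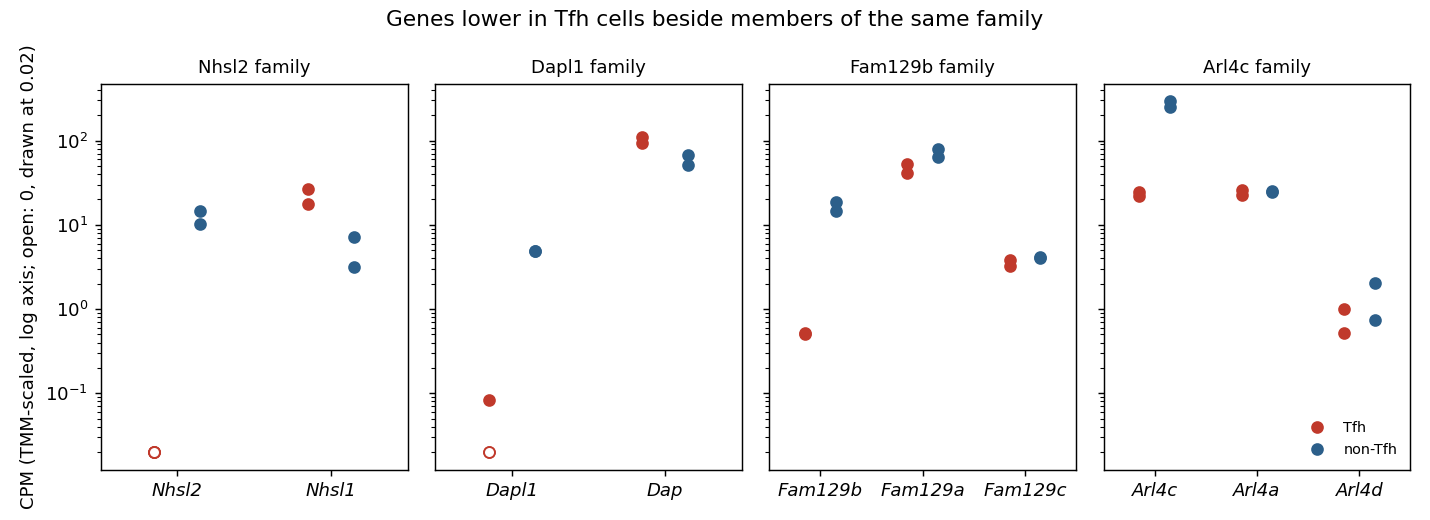
CPM in each library on a log axis for 4 of the genes and for those of their relatives that were tested, Tfh in red and non-Tfh in blue, with libraries at 0 drawn open at the bottom. Levels are to be compared between groups within a gene, since CPM is not corrected for length. Nhsl1 and Dap have their Tfh points above their non-Tfh points, opposite to Nhsl2 and Dapl1.

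Genes around the Arl4c protein were counted beside a background of 4.02% lower and 4.47% higher among all genes tested. At these shares lists of 24 and 29 genes would hold few calls, so nothing is read from their small counts. Of 24 tested ARF and ARF-like GTPases none was called in either direction by edgeR, DESeq2 or limma-voom, with 1 higher and 0 lower at an unadjusted p under 0.05 in edgeR. Arf6 measured 366 and 338 CPM in Tfh and 350 and 268 CPM in non-Tfh cells, and Arf3 190 and 176 CPM in Tfh and 146 and 157 CPM in non-Tfh cells. Among 29 tested ARF exchange factors and GTPase-activating proteins, 1 rose and none fell (2 lower at an unadjusted p under 0.05 in edgeR, and none called lower by DESeq2 or limma-voom). The gene that rose was Asap2, an Arf GTPase-activating protein, which measured 12 and 18.5 CPM in Tfh and 3.5 and 4.61 CPM in non-Tfh cells (log2 fold change 1.90 ± 0.305, edgeR adjusted p = 0.016). It overlaps Itgb1bp1 on the opposite strand, which had 341 and 171 counts in Tfh and 358 and 236 in non-Tfh libraries.

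Of the liver X receptors and their targets, 1 of 13 tested genes fell and 1 rose, beside 4.02% and 4.47% of all genes tested. Rxra, the retinoid partner of these receptors, measured 18.3 and 19.9 CPM in Tfh and 37.5 and 60.9 CPM in non-Tfh cells (-1.37 ± 0.25, edgeR adjusted p = 0.0265). Its call was lost without Tfh T32 (0.103) or Tfh T53 (0.0839). Scd2, a fatty acid desaturase, rose to 498 and 540 CPM in Tfh cells, against 299 and 250 CPM in non-Tfh cells (0.92 ± 0.142, edgeR adjusted p = 0.0146). The receptor gene Nr1h2 and the targets Abcg1, Srebf1 and Mylip were not called.

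In the insulin-like growth factor axis, 2 of 7 tested genes rose and none fell (0 lower at an unadjusted p under 0.05 in edgeR, and none called lower by DESeq2 or limma-voom). Of all genes tested 4.47% were higher and 4.02% lower, so with 7 genes nothing is read from the lack of lower calls. Igf1r, the receptor whose ligands Igfbp4 binds, measured 64.2 and 79.1 CPM in Tfh and 44.1 and 47.9 CPM in non-Tfh cells (log2 fold change 0.64 ± 0.145, edgeR adjusted p = 0.0486). This call was close to the threshold and was lost without Tfh T53 (0.24), without non-Tfh T32 (0.112), without non-Tfh T53 (0.0581), with RLE scaling (0.0526) and with limma-voom (0.0608). It was also lost when genes needed 5 CPM in 2 libraries (0.0506) and without the robust option (0.0534). Stc2, a stanniocalcin, of which the human protein inhibits PAPPA, had 3.35 and 3.49 CPM in Tfh and 0.447 and 0.225 CPM in non-Tfh cells. It is the other of the 2 but passed the low-count filter only through the Tfh libraries, and it was not called without Tfh T32. Pappa and Pappa2 had at most 1 count in any library. Of the ligands Igf2 had none, and Igf1 had 4 and 2 counts in the Tfh libraries and none in the non-Tfh libraries.

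Of the WAVE and Arp2/3 complexes, the actin machinery to which the Nance-Horan family is linked, 1 of 20 tested genes fell and 1 rose, close to the 4.02% and 4.47% of all genes tested. Nckap1, a WAVE subunit, measured 2.6 and 2.1 CPM in Tfh and 8.79 and 10 CPM in non-Tfh cells (-1.97 ± 0.279, edgeR adjusted p = 0.0111). Abi2, another subunit, rose to 80.4 and 89.8 CPM in Tfh cells, against 55.1 and 59.8 CPM in non-Tfh cells (0.57 ± 0.123, edgeR adjusted p = 0.042). The call of Abi2 was lost with each library left out in turn (adjusted p from 0.051 to 0.223) and with limma-voom (0.0502). Of 10 tested genes of ribosome dormancy and eIF5A, a process in which Dapl1 takes part in frog and fish eggs, none was called by edgeR, DESeq2 or limma-voom, and 1 was lower at an unadjusted p under 0.05 in edgeR. The most abundant, the elongation factor Eef2, measured 1719 and 1682 CPM in Tfh and 2052 and 1845 CPM in non-Tfh cells, and the ribosome-binding Serbp1 352 and 324 CPM in Tfh and 377 and 325 CPM in non-Tfh cells. Median log2 fold changes were 0.14 for the GTPases, 0.043 for their exchange factors and GTPase-activating proteins, 0.06 for the liver X receptor list, 0.15 for the growth factor axis, 0.09 for the WAVE list and -0.083 for ribosome dormancy.

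The list of quiescence and resting T cell genes, without Dapl1 and Igfbp4, was the one with many changes. Of its 30 tested genes 14 fell and 1 rose, where 4.02% of all genes tested were lower and 4.47% higher, and its median log2 fold change was -0.77. Il7r, the interleukin-7 receptor, fell by 5.15 ± 0.443 on the log2 scale, to 3.35 and 9.26 CPM in Tfh cells, against 181 and 224 CPM in non-Tfh cells (edgeR adjusted p = 0.00581). The log2 fold change was -3.41 ± 0.155 for Ccr7 (edgeR adjusted p = 0.000271) and -3.53 ± 0.517 for Tdrp (0.0182). Pdlim4, an actin-associated protein, had 1 and 0 counts in Tfh and 23 and 15 in non-Tfh libraries. It is among the 14 but had so few Tfh counts that it passed the low-count filter only through the non-Tfh libraries. The gene that rose was Cd27, a costimulatory receptor, and Tcf7, a regulator of both naive and Tfh cells, was not called. The list was chosen with results of these samples known and is not independent evidence of its direction. The count of genes that fell was 9 without non-Tfh T32. With non-Tfh T32 left out, Il7r was no longer called (edgeR adjusted p = 0.0661). With non-Tfh T53 left out the same held for Il7r (0.113) and Tdrp (0.0638), and with Tfh T32 left out for Cd27 (0.0659). Pdlim4 was not called when either Tfh library or non-Tfh T32 was dropped. Il7r had a log2 fold change of -4.45 and Tdrp of -2.71 when Tfh T32 was dropped, and of -5.90 and -4.43 when Tfh T53 was dropped.

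Chromosomal neighbours were compared to see whether the low level extended past each gene. Among the 3 nearest protein-coding genes on each side of the 6 genes, 36 in all, 24 were tested, 2 fell and 2 rose, with a median log2 fold change of -0.12. These counts stand beside 4.02% lower and 4.47% higher among all genes tested. Both genes that fell are neighbours of Igfbp4. Ccr7 lies 89804 bases from it towards higher coordinates, and Rara, a retinoic acid receptor, 66302 bases towards lower coordinates. Rara measured 10.7 and 16.1 CPM in Tfh and 41.6 and 60.2 CPM in non-Tfh cells (-1.95 ± 0.268, edgeR adjusted p = 0.0111). Top2a, which lies between Rara and Igfbp4, was not called (232 and 243 CPM in Tfh and 272 and 135 CPM in non-Tfh cells), and Tns4, the nearest gene on the other side, had at most 1 count in a library.

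None of the tested neighbours of Plac8, Nhsl2, Fam129b, Arl4c and Dapl1 fell, Rpl12 beside Fam129b among them. Cops4, only 5922 bases from Plac8, measured 51.4 and 53.3 CPM in Tfh and 58.8 and 53.6 CPM in non-Tfh cells, and Coq2 on its other side 16.8 and 19.4 CPM in Tfh and 26.3 and 28.9 CPM in non-Tfh cells (edgeR adjusted p = 0.0688). The nearest tested genes of Dapl1 were Pkp4 (adjusted p = 0.795) and Tanc1 (0.0587), that of Nhsl2 was Pin4 (0.949), and that of Arl4c was Sh3bp4 (0.18), 368194 bases away. The genes nearest to Nhsl2 and Arl4c on the other side, 8030474K03Rik and Glrp1, had no counts.

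**Figure D4:**
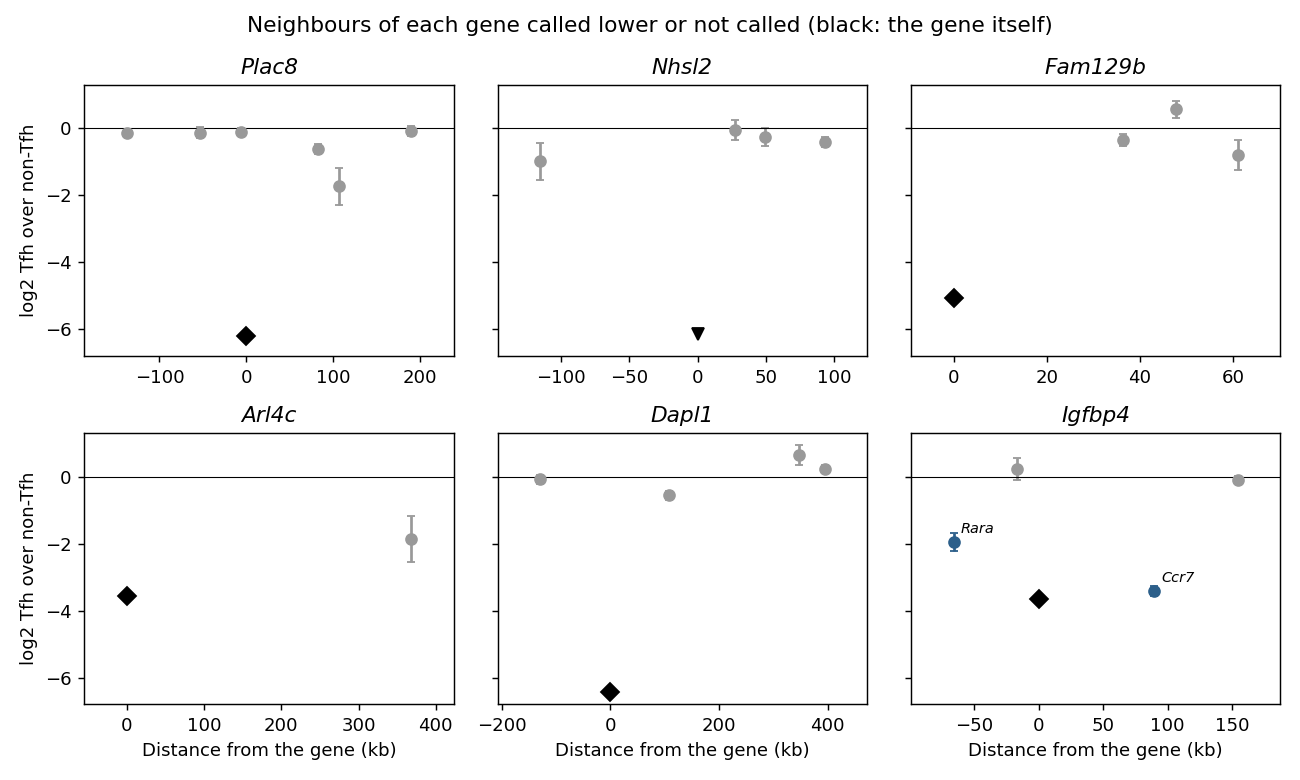
Log2 fold change (Tfh over non-Tfh, with SE) of the tested protein-coding neighbours that were called lower (blue) or not called (grey) against their distance from each gene in kb; neighbours called higher are not drawn. The gene itself is the black diamond at 0, its pooled log2 ratio, or a triangle where this is a bound. Ccr7 and Rara beside Igfbp4 are the neighbours called lower.

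Plac8 is also known from myeloid, dendritic and B cells and Igfbp4 from stromal cells, so markers of such cells were set beside the 6 genes. Of 10 myeloid markers 4 to 8 had a count in a library, with summed levels of 5.19 and 5.24 CPM in Tfh and 4.77 and 8.54 CPM in non-Tfh cells, and Cd14 and S100a9 were at 0 throughout. Itgam, an integrin chain of myeloid cells, was lower in Tfh cells as the 6 genes were, with 0.168 and 0.524 CPM in Tfh and 2.16 and 2.02 CPM in non-Tfh cells. Cd68 lay the other way, at 3.69 and 2.45 CPM in Tfh and 2.31 and 0.787 CPM in non-Tfh cells. Lyz2 measured 1.09 and 1.75 CPM in Tfh and 0.149 and 4.38 CPM in non-Tfh cells, and neither Cd68 nor Lyz2 was called. Of 8 dendritic cell markers 4 to 6 had a count, with Siglech and Clec9a at 0. They summed to 30.6 and 14.8 CPM in Tfh and 48.7 and 29.9 CPM in non-Tfh cells, most of it Bst2. Batf3 had 2 and 0 counts in Tfh and 50 and 6 in non-Tfh libraries, too few to be tested. Zbtb46 had 2 and 6 counts in Tfh and 19 and 18 in non-Tfh libraries. Flt3 measured 1.93 and 1.75 CPM in Tfh and 1.27 and 1.8 CPM in non-Tfh cells, and neither Zbtb46 nor Flt3 was called. B cell markers were higher in Tfh cells, opposite to Plac8, with sums of 338 and 325 CPM in Tfh and 170 and 144 CPM in non-Tfh cells, 4 to 8 of 8 with a count and none at 0 in all libraries. Most of this was Ighm and Cd22, while Ms4a1 had at most 8 counts in a library. Stromal and endothelial markers, 4 to 7 of 10 with a count, summed to 243 and 237 CPM in Tfh and 217 and 237 CPM in non-Tfh cells. Almost all of this was Pecam1, Col1a1 had at most 10 counts in a library and Lum none. Of 6 NK and innate lymphoid markers 4 had a count in each library, with sums of 50.8 and 58.7 CPM in Tfh and 26.6 and 35.7 CPM in non-Tfh cells, and Ncr1 and Klra8 at 0. Most of the Tfh sums was Klrb1c. Eomes, a transcription factor also found in T cells, had 0.168 and 0.349 CPM in Tfh and 2.01 and 1.46 CPM in non-Tfh cells. Like Itgam it was called lower but passed the low-count filter only through the non-Tfh libraries. Gzma, a granzyme, measured 5.61 and 0.873 CPM in Tfh and 4.1 and 20.9 CPM in non-Tfh cells. Of the 2 CD8 markers, Cd8b1 had a count in every library and Cd8a only in non-Tfh T32, and the sums were 6.2 and 3.84 CPM in Tfh and 4.32 and 3.6 CPM in non-Tfh cells. The part of any such cells in the levels of the 6 genes was not tested.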

How the data were processed

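Raw counts by Ensembl gene identifier were deposited for 4 libraries, 2 Tfh and 2 non-Tfh, made with a stranded total RNA kit and read pairs, per the labels' protocols. TopHat2, Bowtie2 and HTSeq with build GRCm38 (mm10) are named, per the submitters' processing notes. Versions, annotation release and strand setting are not given in the sources used here. The unit of every deposited value is a whole-number count, and 1 count was worth 0.0745 to 0.175 TMM-scaled CPM. GENCODE M21 (GRCm38) gave symbols, positions and exon lengths for 37607 of 39179 identifiers.

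Counts were fitted in R 4.3.3 with edgeR 4.0.16 (filterByExpr, TMM, robust quasi-likelihood fit of the group alone, two-sided, Benjamini-Hochberg at 0.05 over 11702 genes). A call is an adjusted p of at most 0.05. Levels are TMM-scaled CPM; TPM used all annotated exonic bases. Pooled ratios divide summed counts by summed scaled library sizes, and a group at 0 takes a floor of 3 counts. The 6 genes, the 8 gene lists (the paralogs among them) and the 7 marker lists were chosen with earlier results of these data known. Every gene of the 6, the tested paralogs, up to 4 called genes per list or else the 2 most abundant, the nearest and called neighbours and the 3 most similar genes were named. Rtl5, Lrsam1, Itgb1bp1, Cd27, Tcf7, the marker genes and further genes given without a test value were named after their values were seen. Results for some genes are not reported here. The counts of calls in all genes, pathway lists and neighbours, and the called genes named from these or as most similar, were also computed with DESeq2 1.42.0, limma-voom (limma 3.58.1), RLE or upper-quartile scaling, 2 other count filters, dispersions without the robust option, a replicate block and each library left out. The pooled ratios were recomputed with both scalings and with each library left out. Summaries and figures used Python 3.11.15, pandas 2.3.3, scipy 1.17.1 and matplotlib 3.10.9.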

Additional observations from a re-analysis of the deposited data

How the results depend on the processing

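Over all genes, 471 lower and 523 higher calls became 980 and 1006 with no low-count filter, and 247 to 435 and 298 to 454 with 1 library left out, fewest without Tfh T53. Where 1 library was left out, the lone library of its group was assumed to vary like the other group. With no low-count filter the calls were 4 neighbours lower, 1 paralog lower, 2 ARF exchange factors and GAPs lower and 2 higher, 4 growth factor axis genes higher, 2 WAVE genes higher and 3 quiescence genes higher. With DESeq2, 2 WAVE genes and 3 quiescence genes were higher. With limma-voom, 1 paralog, 1 growth factor axis gene and 0 WAVE genes were higher. In the growth factor axis 1 gene was higher with RLE scaling, 1 without the robust option and 0 with at least 5 CPM in 2 libraries. Leaving out 1 library gave ranges of 0 to 1 paralog lower and 0 to 2 higher, 0 to 1 ARF exchange factors and GAPs lower, 1 growth factor axis gene higher, 0 to 1 liver X receptor genes lower and 1 to 2 higher, 0 to 1 WAVE genes higher, and 9 to 12 quiescence genes lower and 0 to 2 higher. Of 40 named genes, 17 lost their call under at least 1 alternative and 0 changed sign.

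The labels do not say what T32 and T53 mark, so the libraries were not taken as paired. Deviations from the group means of libraries with the same number correlated at 0.368 over the genes tested. The value is positive, so libraries with the same number deviated in part together, which the main fit does not take into account. With 2 libraries per group the deviations of T53 mirror those of T32, so the 2 pairs are not independent. With the number as a replicate block, 1051 genes were lower and 1069 higher. The block also gave 6 neighbours lower, 1 ARF exchange factor or GAP lower and 2 higher, 2 liver X receptor genes lower, 4 WAVE genes higher, and 22 quiescence genes lower and 4 higher.

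Depth limits the size of the loss for Plac8, Nhsl2 and Dapl1, which had 3, 0 and 1 counts over the Tfh group. RLE or upper-quartile scaling left the 6 ratios as they were within 1%, whereas without Tfh T32 the bound of Nhsl2 was 22.8 and that of Dapl1 9.3.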
